A study of Mus musculus with 6 samples.

Results

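Guanylate-binding proteins (GBPs) are large GTPases that vertebrate cells make in response to interferons. The mouse genes examined here were Gbp2, Gbp3, Gbp4, Gbp5, Gbp6, Gbp7, Gbp8, Gbp9, Gbp10 and Gbp11, taken from the family by name and kept where the deposited value was not 0. All 10 met that rule, out of 47593 symbols in the tables, of which 26562 had a value other than 0. The members were thus selected on their deposited value, with no threshold on the difference between treatments, but the family was chosen with earlier results of this comparison known. Their differences and p-values describe these libraries and are no independent evidence that the family responds. The other symbols of the family were Gbp2b, which the list leaves out and which stood at -0.56 in both groups, and the pseudogene Gbp2-ps, which is listed at 0 in all 6 libraries.

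The samples were cultured hippocampal neurons from wild-type mice. Neurons at culture day 10 were given 6 µg/mL of apolipoprotein E (apoE) particles for 24 h, either microglial apoE particles (3 samples) or astrocytic apoE particles (3 samples). The culture medium of both groups was Neurobasal supplemented with B27 and GlutaMAX. ApoE is the main lipid carrier protein of the brain, and the comparison asks how particles from microglia differ from particles from astrocytes in their effect on neuronal transcripts. Every direction below is microglial relative to astrocytic apoE, and neurons that received no particles were not analysed here. The sources used here do not say what else the particle preparations carried. They also do not say whether samples within a group are separate cultures or animals. The p-values thus rest on the spread between these samples, which limma pools in part over genes and which may be technical.

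GBPs bind and hydrolyse guanine nucleotides and assemble on membranes. In mouse macrophages and fibroblasts they coat vacuoles that hold parasites such as Toxoplasma and the surface of cytosolic bacteria, and they help bacterial lipopolysaccharide to reach caspase-11, the product of Casp4. Their transcription is driven by interferon-gamma and, more weakly, by type I interferons. The interferon-stimulated response element (ISRE) of their promoters is read by interferon regulatory factors such as Irf9 and Irf1, and the gamma-activated site (GAS) is a further element through which interferon-gamma acts.

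The members lie in clusters on chromosomes 3 and 5 of the mouse genome (GENCODE M21 annotation on GRCm38). The chromosome 3 cluster spans 175064 bases from 142493978 to 142669041 on the plus strand and holds Gbp5, Gbp7, Gbp3 and Gbp2 in that order, with Gbp2b and Gbp2-ps among and after them. The chromosome 5 cluster spans 332323 bases from 105014150 to 105346472 on the minus strand and holds Gbp8, Gbp9, Gbp4, Gbp10, Gbp6 and Gbp11. Of the 10 members, 9 are annotated as protein-coding, and Gbp11 is annotated as a polymorphic pseudogene.

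The RefSeq promoter table (GRCm38.p6, 250 bases before to 50 bases after each start) held windows for 4 of the 10 members, all on chromosome 3: Gbp2, Gbp3, Gbp5 and Gbp7. The ISRE core was searched as TTTC, any 2 bases and TTTC, and the GAS as TTCNNNGAA, on both strands; the GAS pattern reads the same on either strand. Each of the 4 members had an ISRE core in a window, as did 3.99% of the 27025 genes in the table (3.44% of its 32851 windows). A GAS was found in 2 members, Gbp5 and Gbp7, and in 9.55% of all genes (8.30% of all windows). Stretches of 120 bases before the RefSeq start are shown to give the place of these matches in members that rose to very different extents. Gbp2b, which stood at -0.56 in both groups, is shown beside them. Capitals mark ISRE core and GAS matches, all on the plus strand; the stretches lie at chr3:142620543-142620662 for Gbp2, chr3:142559924-142560043 for Gbp3, chr3:142530216-142530335 for Gbp7, chr3:142496714-142496833 for Gbp5 and chr3:142594655-142594774 for Gbp2b.
Gbp2: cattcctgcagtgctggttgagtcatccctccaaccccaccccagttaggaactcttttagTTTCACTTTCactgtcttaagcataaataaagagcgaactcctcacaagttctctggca
Gbp3: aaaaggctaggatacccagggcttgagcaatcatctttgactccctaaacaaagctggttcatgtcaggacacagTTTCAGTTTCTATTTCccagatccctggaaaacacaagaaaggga
Gbp7: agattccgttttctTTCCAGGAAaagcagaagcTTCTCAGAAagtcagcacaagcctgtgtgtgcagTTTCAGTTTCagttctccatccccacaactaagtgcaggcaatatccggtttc
Gbp5: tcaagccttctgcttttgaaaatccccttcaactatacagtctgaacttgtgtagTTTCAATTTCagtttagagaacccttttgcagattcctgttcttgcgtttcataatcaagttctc
Gbp2b: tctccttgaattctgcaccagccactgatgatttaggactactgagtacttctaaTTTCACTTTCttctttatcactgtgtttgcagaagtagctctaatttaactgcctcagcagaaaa

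Distances are from the RefSeq starts, which are not the GENCODE gene starts given with each member: the RefSeq start lies 2956 bases downstream of the GENCODE start in Gbp5 and 61 downstream in Gbp2, so the printed Gbp5 stretch and the Gbp2 core lie inside those GENCODE genes. In Gbp7 it lies at 142530336, before the GENCODE start, and in Gbp3 it lies 18 and 330 bases downstream. The ISRE core began 59 bases before the RefSeq start in Gbp2, 53 in Gbp7 and 165 in Gbp5. Gbp3 held overlapping cores that began 45 and 39 bases before the upstream of its 2 RefSeq starts and had none in the window of the other. Gbp5 had its GAS matches outside the printed stretch, 245 and 52 bases before the start. Gbp2b, whose deposited value was the lowest of the family in every library among those not at 0, also held an ISRE core, 137 bases before its start. These matches describe letters in the reference and are not shown to be bound in these cells.

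The deposited values are on a log2 scale that is common to the 6 libraries and behaves like a regularized logarithm, which draws weakly expressed genes towards their own mean. The sequencing depth behind them is unknown. Genes at or above 3.32, which is the log2 of 10, in 3 or more libraries were tested with limma. This left 15055 genes and 9 of the 10 members, and each of the 9 was above that value in all 6 libraries. Gbp8, at 2.78 to 2.84, was just under the filter, and Gbp4, at 3.99 to 4.14, was the nearest above it.

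All 9 tested members rose with microglial apoE at a Benjamini-Hochberg adjusted p under 0.05, and 0 fell. Of all genes tested, 24.9% passed that threshold, 13.0% as higher and 11.8% as lower with microglial apoE. The members' log2 fold changes ran between 0.12 and 1.60 with a median of 0.69, and the median over all genes tested was -0.0006. In each of the 10 members the 3 microglial apoE libraries lay above the 3 astrocytic apoE libraries, as they did in 20.1% of all genes tested. A log2 fold change of at least 1 was reached by 3 members, Gbp6, Gbp3 and Gbp7, and by 0.213% of genes tested. Summed over the 10 members, 2^value was 3801, 3656 and 3724 in the microglial apoE libraries, against 1738, 1723 and 1698 in the astrocytic apoE libraries, a ratio of means of 2.17. Gbp2, Gbp3, Gbp6 and Gbp7 made up 88.6% of this sum with microglial apoE and 81.0% with astrocytic apoE. Gbp6 alone made up 36.2% and 25.8%, and its value is uncertain because much of its sequence also occurs in other genes. Across all genes 1962 rose and 1780 fell as deposited (52.4% higher). The share of higher genes was 34.8% when libraries were centred on their medians and 65.6% when their sums of 2^value were equalized, and the 9 members rose under each of these scalings.

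**Figure D1:**
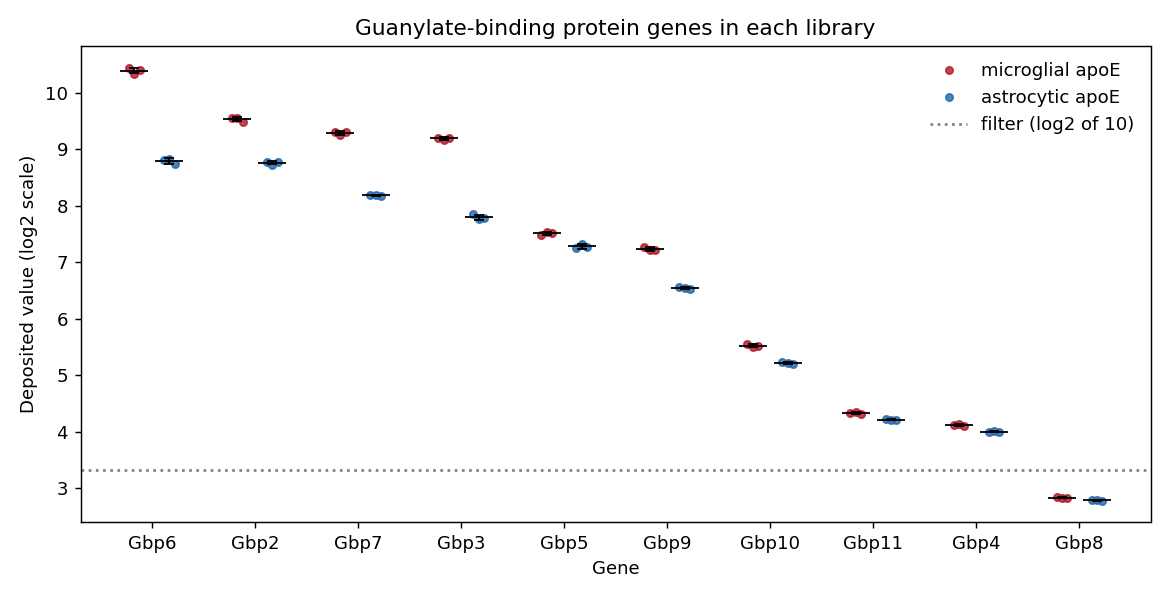
Deposited log2-scale value of each member in each library, with members ordered by their astrocytic apoE mean. Points are single libraries, microglial apoE (red) left of astrocytic apoE (blue), black bars are mean and SD (n = 3 each), and the dotted line is the filter at 3.32. The gap between the groups is widest for Gbp6, Gbp3 and Gbp7, and Gbp8 lies under the filter.

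Gbp6 rose the most of the members and is, with Gbp7 and Gbp10, among the mouse GBPs needed for defence of macrophages against Listeria and mycobacteria. It lies at chromosome 5, 105270702 to 105293698. Its value was 10.44, 10.34 and 10.41 with microglial apoE, against 8.82, 8.83 and 8.74 with astrocytic apoE. The lowest microglial apoE library was 1.51 above the highest astrocytic apoE library, and the SD within a group was 0.050. The log2 fold change was 1.60 ± 0.033 (SE), a 3.03-fold difference (limma adjusted p = 1.4e-22) and the 13th highest of the 15055 genes tested.

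Gbp3 rose next, with values of 9.21, 9.16 and 9.21 with microglial apoE and 7.85, 7.77 and 7.78 with astrocytic apoE. It lies at chromosome 3, 142560026 to 142573209. The log2 fold change was 1.40 ± 0.032 (SE), or 2.63-fold (limma adjusted p = 1.1e-21). Gbp7, its neighbour at 142530342 to 142550149, stood at 9.31, 9.25 and 9.31 with microglial apoE, against 8.19, 8.20 and 8.18 with astrocytic apoE. Its difference was 2.15-fold, a log2 fold change of 1.10 ± 0.031 (SE, adjusted p = 1.0e-19). The groups were 1.32 apart in Gbp3 and 1.05 apart in Gbp7, from the lowest microglial to the highest astrocytic apoE library.

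Gbp2, an isoprenylated GBP that restricts Toxoplasma in mouse cells, is the last member of the same cluster, at 142620602 to 142638008. It stood at 9.56, 9.56 and 9.49 with microglial apoE, against 8.78, 8.73 and 8.77 with astrocytic apoE, a log2 fold change of 0.78 ± 0.031 (SE, 1.71-fold, adjusted p = 2.8e-16). Per kilobase of annotated exon its deposited level was the highest of the members in both groups. The level of Gbp6, next in that order, is uncertain because much of its sequence also occurs in other genes. Gbp9, at chromosome 5, 105077630 to 105139539, had values of 7.28, 7.21 and 7.21 with microglial apoE and 6.56, 6.55 and 6.52 with astrocytic apoE. The log2 fold change was 0.69 ± 0.027 (SE), or 1.61-fold (adjusted p = 2.2e-16). The groups of Gbp2 and Gbp9 did not overlap, and their gaps of 0.71 and 0.65 were several times the SD within a group.

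Gbp5, which promotes assembly of the Nlrp3 inflammasome in mouse macrophages, rose little. Its values were 7.49, 7.54 and 7.51 with microglial apoE, against 7.25, 7.33 and 7.26 with astrocytic apoE. The log2 fold change was 0.23 ± 0.030 (SE), a 1.18-fold difference (adjusted p = 1.5e-06). Gbp5 is the first gene of the chromosome 3 cluster, at 142493978 to 142522344, and lies beside Gbp7. The lowest microglial apoE library was 0.16 above the highest astrocytic apoE library.

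The remaining members had low values. Gbp10 (chromosome 5, 105215699 to 105239533) stood at 5.55, 5.49 and 5.52 with microglial apoE, against 5.23, 5.22 and 5.21 with astrocytic apoE, a log2 fold change of 0.30 ± 0.020 (SE, adjusted p = 9.0e-12). Gbp4, whose mouse protein restrains the interferon regulatory factor Irf7, lies at 105115767 to 105139586. Its value was 4.122, 4.137 and 4.107 with microglial apoE and 3.988, 4.005 and 3.999 with astrocytic apoE, a log2 fold change of 0.12 ± 0.014 (SE, adjusted p = 1.8e-07). The pseudogene Gbp11 (105323042 to 105346472) stood at 4.34, 4.34 and 4.31 with microglial apoE, against 4.22, 4.20 and 4.20 with astrocytic apoE, a log2 fold change of 0.12 ± 0.015 (SE, adjusted p = 1.2e-06). These 3 genes did not overlap between groups, but the differences were at most 0.30 on the log2 scale.

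Gbp8 (105014150 to 105139540) was not tested at the filter. Its values were 2.84, 2.83 and 2.83 with microglial apoE and 2.79, 2.79 and 2.78 with astrocytic apoE. The groups were 0.043 apart. With no filter on low values its log2 fold change was 0.049 with a limma adjusted p of 4.2e-05; of the 26562 genes in that fit 6.97% rose, and in 13.1% the microglial apoE libraries all lay above the astrocytic ones.

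The SD within a group was below that of counting in all 10 members, taking 2^value as if it were a count. It was 0.050 in Gbp6, against 0.052 from counting, but 0.012 in Gbp4, against 0.35, and 0.0046 in Gbp8, against 0.54. Set against the SE that counting alone would give, the difference between groups was 35.1 times that SE in Gbp6, 21.3 in Gbp3, 18.7 in Gbp7, 15.4 in Gbp2 and 6.29 in Gbp9. It was 2.56 times the counting SE in Gbp5 and 1.65 times in Gbp10, and only 0.45 times in Gbp11, 0.43 times in Gbp4 and 0.11 times in Gbp8. A regularized logarithm shrinks both the differences and the errors of weak genes. The fold changes of Gbp10, Gbp11, Gbp4 and Gbp8 may thus understate their change, and their adjusted p-values may be too small. Gbp5 was not among the weakest, with a mean over the 6 libraries of 7.40, above Gbp9 at 6.89. The SD within a group was 0.034 in Gbp5, against 0.11 from counting, and 0.029 in Gbp9, against 0.13. Their adjusted p-values may therefore also be too small.

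**Figure D2:**
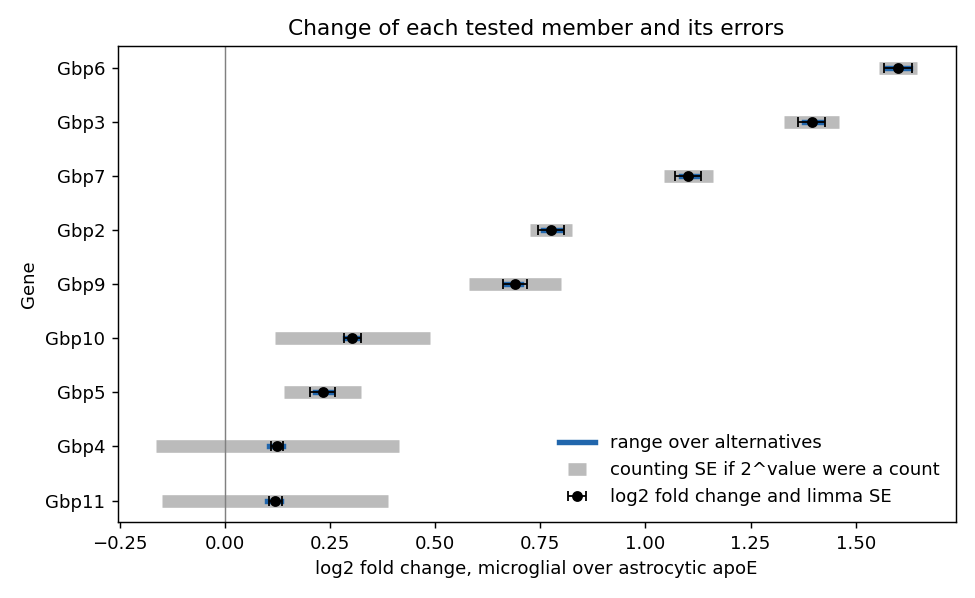
log2 fold change of the 9 tested members, microglial over astrocytic apoE (x axis), with limma's SE (black bars), the range over the processing alternatives (blue) and the SE that counting alone would give if 2^value were a count (grey). The black and blue bars are narrow in every gene, and the grey bar crosses 0 in Gbp4 and Gbp11.

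The members differed in how far they rose. The 5 pairs described here were chosen after the values were seen, so no test is given, and each difference is taken between 2 genes inside each library. Gbp6 minus Gbp2 was 0.88, 0.79 and 0.92 in microglial apoE libraries, against 0.04, 0.10 and -0.03 in astrocytic apoE libraries, a difference of 0.83. Gbp3 minus Gbp5 was 1.723, 1.622 and 1.697 with microglial apoE and 0.596, 0.445 and 0.513 with astrocytic apoE, a difference of 1.16. The groups were apart in each of these, with SDs of 0.052 to 0.076.

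The chromosome 3 neighbours Gbp3 and Gbp7 were closer, with Gbp3 minus Gbp7 at -0.10, -0.09 and -0.11 in microglial apoE libraries and -0.34, -0.43 and -0.40 in astrocytic apoE libraries. Gbp9 minus Gbp5 averaged -0.28 ± 0.061 with microglial apoE and -0.74 ± 0.042 with astrocytic apoE (SD, n = 3 each). Gbp6 minus Gbp10 averaged 4.87 ± 0.026 with microglial apoE and 3.58 ± 0.040 with astrocytic apoE. In each of the 5 pairs the gene with the larger log2 fold change was put first, so the common direction was fixed by that order. The groups did not overlap in these pairs, but the share of other gene pairs that do the same was not computed.

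Strong and weak members lay side by side in both clusters. The median log2 fold change was 0.94 over the 4 members on chromosome 3 and 0.30 over the 5 tested members on chromosome 5. Each cluster held a member that rose over 2.6-fold, Gbp3 and Gbp6, and a member near 0.2 or below, Gbp5 and Gbp4. Gbp6 had Gbp10 (0.30) and Gbp11 (0.12) as its neighbours. The fold changes of Gbp10, Gbp11 and Gbp4 may be understated, as given above, and Gbp10 shares much of its sequence with Gbp6. The contrasts between clusters and between neighbours are uncertain to that extent.

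**Figure D3:**
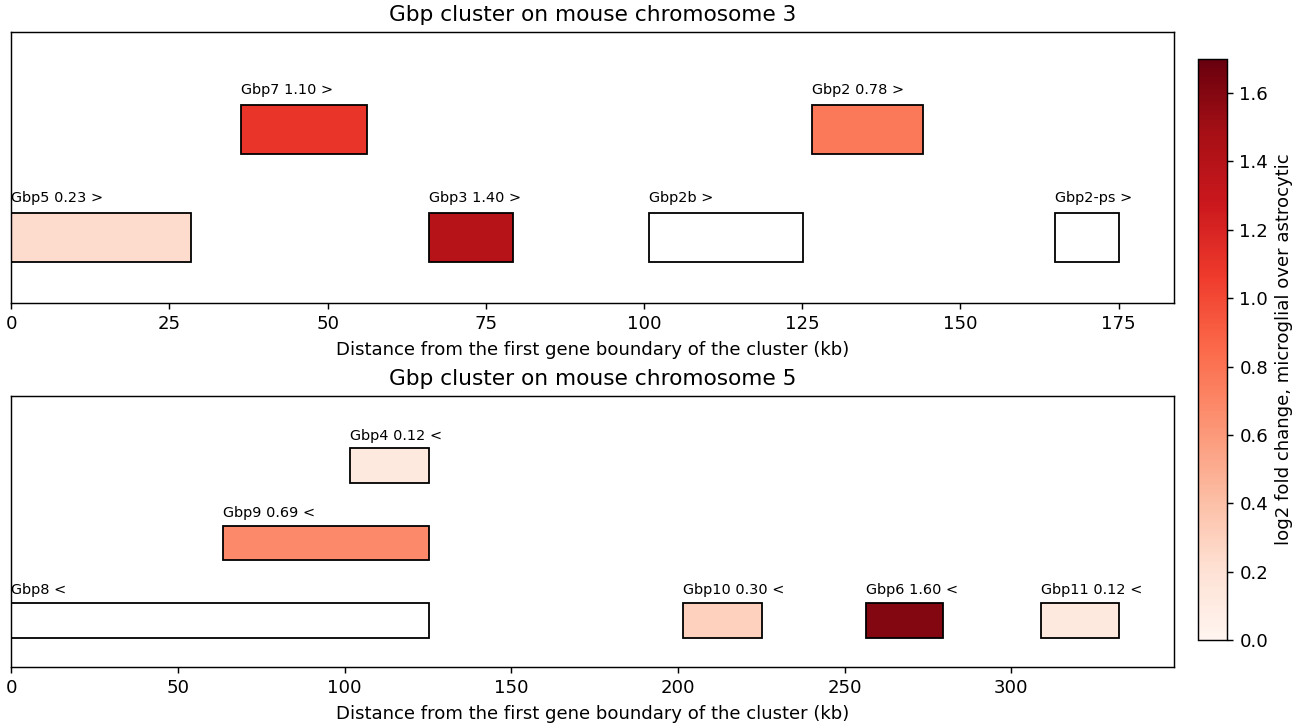
Map of the Gbp clusters on chromosomes 3 (top) and 5 (bottom), with distance from the first gene boundary in kb on the x axis. Boxes are genes coloured by log2 fold change, microglial over astrocytic apoE (number beside the name), white boxes were not tested, and > or < gives the strand. Gbp8, Gbp9 and Gbp4 overlap each other, and Gbp6, with the highest value, stands between Gbp10 and Gbp11.

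Levels between members were compared per kilobase of annotated exon, as the log2 of 2^value per kb, with the exons of all annotated transcripts joined. With microglial apoE the order from the top was Gbp2 (8.20), Gbp6 (7.82), Gbp3 (7.49), Gbp7 (6.80), Gbp9 (4.86), Gbp5 (4.78), Gbp10 (3.57), Gbp11 (2.90), Gbp4 (1.22) and Gbp8 (1.05), with SDs of 0.005 to 0.052. With astrocytic apoE it was Gbp2 (7.43), Gbp6 (6.22), Gbp3 (6.09), Gbp7 (5.70), Gbp5 (4.55), Gbp9 (4.17), Gbp10 (3.26), Gbp11 (2.78), Gbp4 (1.09) and Gbp8 (1.00). Gbp5 and Gbp9 exchanged places between the groups, and the others kept theirs. No neighbours in either order overlapped between libraries, but the places of Gbp6 and Gbp10 are uncertain. Much of their sequence also occurs in other genes, as given below. The gap between Gbp9 and Gbp5 with microglial apoE (0.080) and the gap between Gbp4 and Gbp8 (0.17 with microglial and 0.090 with astrocytic apoE) were smaller than the counting SDs of those genes.

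The sequences of some members limit how well their reads can be told apart. Transcripts of Gbp10 shared 60.1% of their 100-base stretches exactly with Gbp6, and transcripts of Gbp6 shared 36.3% of theirs with Gbp10. In the annotation the locus Gm43302 also covers 46.3% of the exon bases of Gbp10 and 29.0% of those of Gbp6 on the same strand. Over all other annotated genes, 73.5% of the stretches of Gbp10 and 64.5% of those of Gbp6 occurred elsewhere. The counting could divide or drop such reads, so the values and changes of Gbp6 and Gbp10 are uncertain, both on their own and relative to each other, and this was not tested. Gbp8, Gbp9 and Gbp4 share 60 or 61 exon bases, 0.8% to 1.8% of their exons. Gbp7 shares 11.3% of its exon bases with the locus Gm43802 on the same strand, and 10.0% of its stretches occurred in another gene.

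The chromosome 3 members were nearly free of stretches shared with another member. Gbp2 and Gbp5 had 0.0%, Gbp7 0.4% and Gbp3 0.7% of their 100-base stretches in another member. On chromosome 5 the share was 1.6% in Gbp4, 1.7% in Gbp9, 4.4% in Gbp8 and 5.1% in Gbp11. Gbp3, Gbp7 and Gbp2 rose 2.63-fold, 2.15-fold and 1.71-fold with at most 0.7% of their stretches shared with another member. Over all other annotated genes the share was 10.0% in Gbp7, 0.7% in Gbp3 and 0.0% in Gbp2. The part of shared reads in these changes was not tested.

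**Figure D4:**
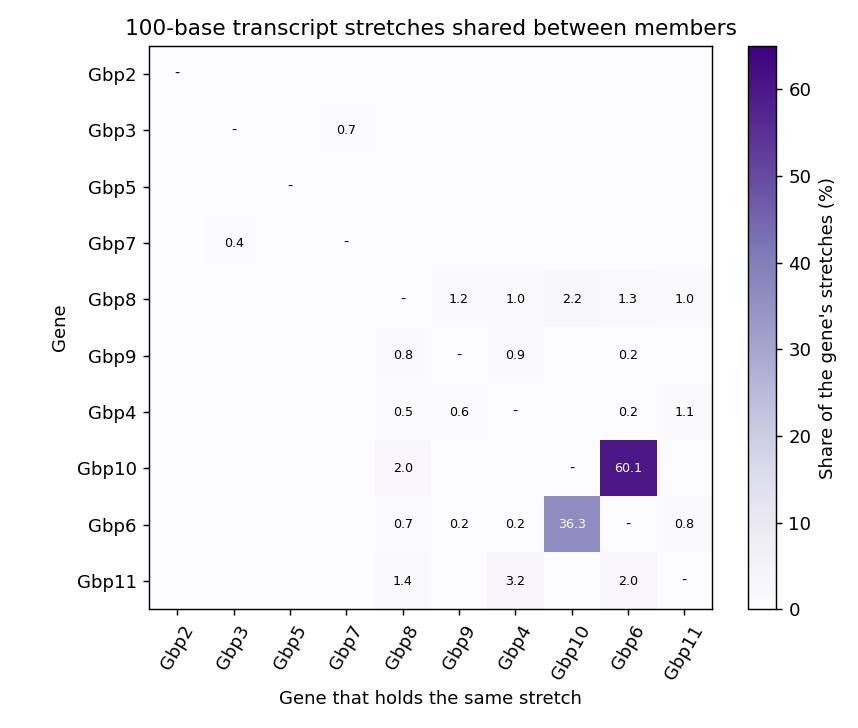
Share of each member's 100-base transcript stretches (rows, in %) found letter for letter in the transcripts of another member (columns); blank cells are 0. The only large cells are Gbp10 with Gbp6 (60.1%) and Gbp6 with Gbp10 (36.3%).

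The interferon genes were at 0 or under the filter. Of 18 interferon genes listed, 17 were listed at 0 in all 6 libraries, including Ifng and Ifnb1, and Ifne averaged -1.965 with microglial apoE and -1.966 with astrocytic apoE. The 7 receptor and Janus kinase genes were all tested, and 0 passed at an adjusted p under 0.05, with log2 fold changes of -0.04 to 0.04. Ifngr1, a chain of the interferon-gamma receptor, averaged 7.93 ± 0.022 with microglial apoE and 7.89 ± 0.040 with astrocytic apoE (SD, n = 3 each, adjusted p = 0.35). The 4 with the smallest p were Ifngr2 (-0.04), Jak1 (-0.04), Jak2 (0.04) and Ifngr1 (0.04).

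In the list of transcription factors and regulators of Gbp expression, which includes the cytokine signalling inhibitors Socs1 and Socs3, 8 of 11 tested rose and 0 fell (median log2 fold change 0.24). With libraries centred on their medians, and without astrocytic replicate 1, 8 rose and 1 fell. The share to set beside this list and those below is that of all genes tested, 13.0% higher and 11.8% lower. Irf7, a master regulator of type I interferon genes, stood at 8.931, 8.995 and 8.923 with microglial apoE, against 7.367, 7.356 and 7.375 with astrocytic apoE, a log2 fold change of 1.58 ± 0.031 (SE, adjusted p = 4.4e-23). Irf9 rose by 1.51 ± 0.030 and Stat2 by 1.38 ± 0.034 (SE). Irf1, which binds Gbp promoters after interferon-gamma and was chosen here after its values were seen, rose by 0.24 ± 0.030 (SE), with libraries at 7.64 to 7.70 with microglial apoE, against 7.39 to 7.48 with astrocytic apoE. The groups of each of these genes were apart by more than the spread within them.

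The immunity-related GTPases act beside GBPs on pathogen vacuoles. Of 15 listed, 9 were tested, 8 rose and 0 fell (median 0.83). Iigp1 stood at 10.262, 10.224 and 10.264 with microglial apoE, against 8.001, 7.962 and 7.990 with astrocytic apoE (log2 fold change 2.27 ± 0.030 SE). Gm4951 rose by 1.54 ± 0.030, Irgm1 by 1.21 ± 0.034 and Igtp, also called Irgm3, by 1.07 ± 0.033 (SE). Gbp6 and Gbp3 had log2 fold changes between those of Iigp1 and Irgm1. The member of the list that did not pass was Irgq (-0.01, adjusted p = 0.89), named after its value was seen.

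Relatives of the GBPs among the large GTPases moved by under 0.2 on the log2 scale, apart from Mx2 and Mx1. The atlastins, which share the GTPase domain of GBPs and shape the endoplasmic reticulum, and the related Rnf112 were all tested, and 0 of 4 rose. Atl2 fell by 0.16 and Atl1 by 0.10 on the log2 scale (SE 0.033 and 0.028), and the call on Atl1 was lost without astrocytic replicate 2 (adjusted p = 0.060). Atl3 (-0.04) and Rnf112 (0.03) did not pass. Of 13 members of the dynamin superfamily, 3 rose and 2 fell (median 0.0027), beside 13.0% higher and 11.8% lower over all genes tested. Those that rose were the interferon-induced Mx2 (0.78 ± 0.026 SE) and Mx1 (0.31 ± 0.019 SE) and the neuronal dynamin Dnm1 (0.10 ± 0.027 SE). Dnm3 (-0.10) fell, as did Dnm1l (-0.07), which was chosen after its value was seen, and 0 of the 13 fell without microglial replicate 2 or 3 or astrocytic replicate 1 or 2.

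Genes that act on GBPs after translation, or after them in the pathway, moved by less than the leading members. None of the 6 prenylation enzyme genes passed (log2 fold changes -0.02 to 0.06). Their list covers the addition of the lipid anchor of isoprenylated GBPs such as Gbp2 and the processing steps that follow it. Of 14 genes for the recruitment of GBPs through Atg8 lipidation and galectins, 5 rose and 0 fell (median 0.06): the autophagy receptor Sqstm1 (0.42 ± 0.027 SE), the galectins Lgals8 (0.18 ± 0.029 SE) and Lgals3 (0.10 ± 0.030 SE), Map1lc3b (0.10 ± 0.028 SE) and Map1lc3a (0.13, chosen after its value was seen). The groups of Map1lc3a overlapped, and its call was lost without microglial replicate 1 or 2, without astrocytic replicate 1 or 2 and with limma's trend and robust options off (adjusted p = 0.055 to 0.14). The call on Map1lc3b was lost without astrocytic replicate 1 or 2 (0.056 and 0.075) and that on Lgals3 without microglial replicate 2 or astrocytic replicate 1 (0.12 and 0.093). Without astrocytic replicate 1 the count was 2, without microglial replicate 2 or astrocytic replicate 2 it was 3, and without astrocytic replicate 3 it was 7 higher and 1 lower.

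Of 6 tested inflammasome and pyroptosis genes, 2 rose and 3 fell (median -0.03). Casp1 rose by 0.14 ± 0.029 and Casp4, which encodes caspase-11, by 0.11 ± 0.024 (SE). Il18 fell by 0.16 and Ninj1 by 0.12 on the log2 scale, and Aim2, also chosen after its value was seen, fell by 0.07, a call lost without microglial replicate 1 (adjusted p = 0.076) or 3 (0.11) or astrocytic replicate 1 (0.10) or 2 (0.14), with the sums of 2^value equalized (0.081) and with limma's trend and robust options off (0.059). Gsdmd, the pore-forming effector of pyroptosis, stood at 2.02 with microglial apoE and 2.01 with astrocytic apoE, under the filter.

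**Figure D5:**
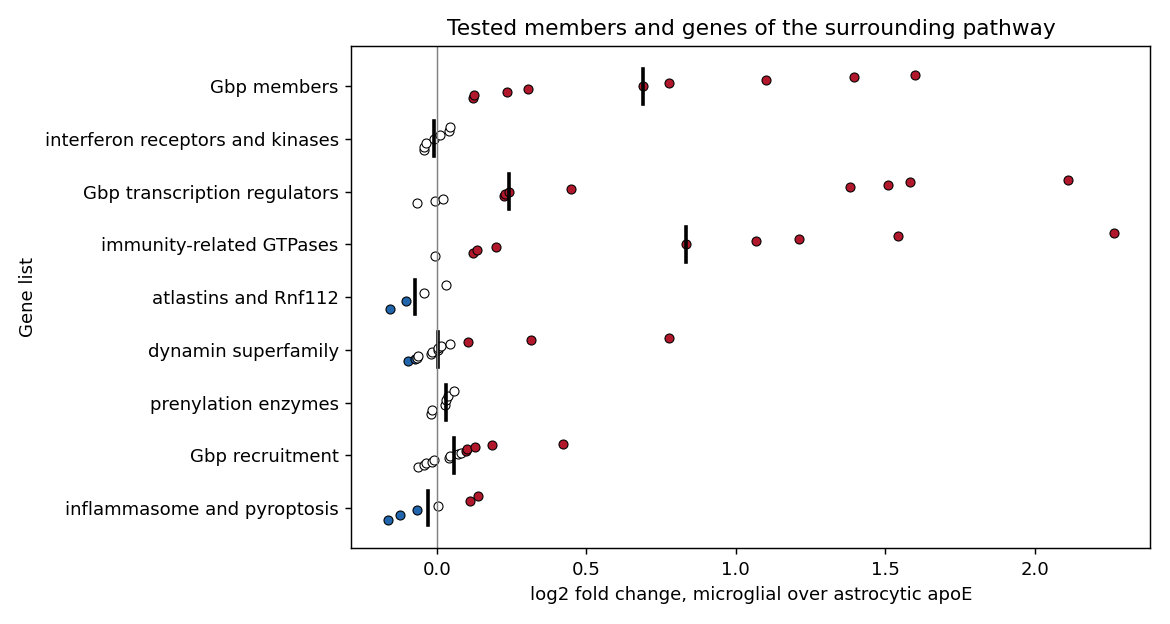
log2 fold change, microglial over astrocytic apoE (x axis), of the tested Gbp members and of the tested genes in each pathway list. Red and blue points rose and fell at a limma adjusted p under 0.05, open points did not pass, and vertical bars are medians. The members (median 0.69) and immunity-related GTPases (0.83) lie to the right, and receptors and prenylation enzymes lie around 0.

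The genes with the profile nearest to the mean of the 9 tested members were found by the root mean square difference of the log2 values, each centred on its mean, over the 6 libraries. The 8 nearest were Herc6 (0.022), Ube2l6 (0.030), Gm20559 (0.031), Hmox1 (0.032), Igfbp3 (0.038), Ifi35 (0.039), Shisa5 (0.041) and Mx2 (0.041), with log2 fold changes of 0.65 to 0.78. Herc6 had values of 8.17, 8.19 and 8.14 with microglial apoE and 7.44, 7.47 and 7.43 with astrocytic apoE. Among the members themselves the distance was 0.015 in Gbp9 and 0.045 in Gbp2, and 0.45 in Gbp6. With 6 libraries in 2 groups, this measure reflects mostly the size of the difference between groups.

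Markers of other cells were read in the same libraries, since bulk RNA cannot tell fewer cells of a type from less RNA per cell. All 10 neuron markers were tested and 5 fell, beside 11.8% lower and 13.0% higher over all genes tested. Their summed 2^value was 76612 to 76947 with microglial apoE, against 79772 to 80349 with astrocytic apoE. Microglia and macrophage markers were low: of 18, 13 were tested and 1 rose (C1qc, 0.06), a call lost under 8 of its alternatives. Their summed 2^value was 552 to 562 with microglial apoE, against 540 to 544 with astrocytic apoE. The 13 tested markers averaged between 3.96 and 6.84 with microglial apoE, among them Cx3cr1 (4.77, against 4.76 with astrocytic apoE), Csf1r (4.89, against 4.84) and C1qa (5.93, against 5.89). Siglech was listed at 0, and P2ry12 (2.20 in both groups), Tmem119, Trem2 and Mrc1 were under the filter. The part of cells that carry these markers in the Gbp values was not tested.

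Endothelial and mural markers summed to 431 to 437 with microglial apoE, against 419 to 425 with astrocytic apoE, with 0 of 4 tested passing. Of 8 T and NK cell markers, Cd3e, Cd3g, Cd8a and Gzmb were listed at 0 and 0 were tested. Oligodendrocyte lineage markers summed to 6160 to 6332 with microglial apoE, against 5999 to 6296 with astrocytic apoE, and 1 of the 8 rose and 2 fell. Astrocyte markers were abundant and lower with microglial apoE, 52510 to 53489 against 60850 to 61536 with astrocytic apoE. Of 11 tested, 8 fell and 1 rose. Gfap, the astrocyte intermediate filament, fell by 1.08 on the log2 scale (SE 0.026), the lowest log2 fold change of the 15055 genes tested. The marker that rose was Slc1a3 (0.09 ± 0.024 SE), and Sox9 (0.06) and Fgfr3 (0.01) did not pass. The summed Gbp level was 3656 to 3801 with microglial apoE, against 1698 to 1738 with astrocytic apoE. Which cells of the culture carried the Gbp transcripts was not tested.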

How the data were processed

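Each sample had a table with a log2 value per gene symbol, deposited by the authors without a header. Per the submitters' processing notes, FastQC, HISAT2, featureCounts, DESeq2 and the mouse build GRCm38 were used. The sources used here do not give which step each served, tool versions, annotation release or strandedness. A regularized logarithm is inferred from the values: 21031 symbols stood at 0 in all 6 libraries and 0 symbols in only some. No counts are given, so no depth or detection floor was derived. The counting SD and SE printed for comparison treat 2^value as if it were a count and are not measured errors; 2^value summed to 18060473 to 18337624 in a library.

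Groups followed the recorded treatment. The log2 values, with no pseudocount added, were compared by limma 3.58.1 (trend and robust) in R 4.3.3, with Benjamini-Hochberg adjustment over the 15055 genes at or above log2 of 10 in at least 3 libraries. The fit was tested on simulated data with 200 of 15055 genes changed. It recovered 87% of changes of 0.2 and 99% of changes of 0.5 on the log2 scale, and 3.63% of calls were false. The simulation used independent noise with the SDs of these same values, so it does not test the p-values of weak genes. It also held no error shared by the genes of a library, and far fewer genes changed in it than the 24.9% that passed here. Its share of false calls therefore does not carry over to the calls made on these data. Alternatives changed the filter, scaling, variance model, replicate block and libraries. Tables and figures used Python 3.11.15, numpy 2.4.6, pandas 2.3.3 and matplotlib 3.10.9. Positions and exon lengths came from GENCODE M21 (GRCm38), and promoter sequences from RefSeq (GRCm38.p6).

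The members and gene lists were chosen with earlier results of these data known. Genes named were all members, the other Gbp symbols, up to 4 tested genes per pathway list by smallest p, the 8 nearest profiles and Gfap. Cell type markers, genes at 0 or under the filter, and those marked in the text were named after their values were seen. A result on 1 gene of these lists is not reported here.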

Additional observations from a re-analysis of the deposited data

How the results depend on the processing

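All 9 tested members kept their direction and their call under every alternative run for them: 13 for Gbp2, Gbp3, Gbp5, Gbp6, Gbp7 and Gbp9, and 12 for Gbp4, Gbp10 and Gbp11, which did not reach the filter at 50. The log2 fold change of Gbp6 ranged from 1.57 to 1.63, that of Gbp2 from 0.76 to 0.80 and that of Gbp5 from 0.21 to 0.26, and the largest adjusted p of any member was 0.0028 (Gbp11). The size of the adjusted p-values depended on limma's trend and robust options. With these off it was 2.9e-10 in Gbp6, against 1.4e-22 with them on, and 0.0019 in Gbp4, against 1.8e-07. Without each library in turn, 9 members and 2556 to 4541 of all genes passed.

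Of the immunity-related GTPases, 5 of 6 passed at the filter of 50, where fewer genes are tested. In the dynamin superfamily, 3 passed with the sum of 2^value made equal, and 3 to 6 without each library in turn. The other ranges over left-out libraries were 1 to 2 for the atlastins and Rnf112 and 2 to 8 for the recruitment list; the cause was not tested. The call on Dnm3 was also lost with the sum made equal (adjusted p = 0.065) and with limma's trend and robust options off (0.071), and that on Dnm1l with no filter (0.081).

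Correlations over genes between the deviations of same-numbered libraries were 0.039, -0.12 and -0.19, against -0.12 to 0.18 between differently numbered ones. Deviations from a mean of 3 libraries are bound to each other, so these values do not settle whether the numbers mark a pairing. With the replicate block 3387 genes and 9 members passed, and Dnm1l lost its call (adjusted p = 0.077). Unknown depth and the shrinkage of weak genes limit Gbp4, Gbp8, Gbp10 and Gbp11 most.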
